A study of Homo sapiens with 24 samples.

Results

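Cells of HepG2, a line from a human liver carcinoma, with a non-specific control hairpin (shCtrl) were compared after 1 h of actinomycin D with the same line before the drug. The comparison rests on 4 of the series' 24 RNA-seq libraries, 2 at 1 h and 2 at 0 h, taken by line and time from the sample titles. The 1 h cells had received actinomycin D at 5 ug/mL and the 0 h cells were untreated. All cells of the series had been infected with lentivirus and selected with puromycin as stable pools, so the control cells also carry a vector and a hairpin. The other libraries come from the same line at 3 and 6 h and from lines with a hairpin against SETD2 (shSETD2), which methylates lysine 36 of histone H3, or METTL14 (shMETTL14), a subunit of the RNA N6-adenosine methyltransferase. The question put to these 4 libraries was which transcripts lost share of the RNA within the first hour of blocked transcription and which gained.

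Actinomycin D intercalates into DNA and stops elongating RNA polymerases, so that after its addition the level of a transcript is set mainly by processing of RNA already made and by decay. Transcripts of signal-induced transcription factors and feedback inhibitors are known for rapid turnover, often through AU-rich elements in the 3′ untranslated region (UTR) that recruit decay factors of the ZFP36 family. Transcripts of secreted liver proteins, ribosomal proteins and respiratory chain subunits are known for long lives. Because a library has a fixed size, a stable transcript gains share when others are lost.

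The 1 h libraries held 23.2 and 27.7 M counts, and the 0 h libraries 22.1 and 25.3 M. At these depths 3 counts corresponded to between 0.0993 and 0.119 CPM (counts scaled to a common library size of 1e+06, here scaled between libraries by TMM). Mitochondrial transcripts took 7.13% and 7.10% of the counts at 1 h, against 6.995% and 6.89% at 0 h. The 10 hepatocyte markers summed to 57259 and 58290 CPM at 1 h and to 51718 and 51502 CPM at 0 h. Markers of other cells ranged from no count to high levels. COL1A2, DCN and LUM of fibroblasts, PTPRC and CD3E of blood cells and KDR of endothelium had no count in any of the 4 libraries. The same held for NEFL and NEFM of the HEK293T cells that produced the virus. RELN, LYZ and LIN28B, a HEK293T marker, were well detected. Summed over each list, the 8 fibroblast markers came to 14.03 and 16.01 CPM at 1 h and 13.4 and 13.7 CPM at 0 h, the 7 endothelial and stellate markers (nearly all RELN) to 2471 and 2580 against 2413 and 2390 CPM, and the 4 HEK293T markers to 139 and 141 against 145 and 145 CPM. The 9 blood markers were nearly all LYZ and came to 1300 and 1267 CPM at 1 h, against 1090 and 1047 CPM at 0 h. LYZ (0.26) lost its call without the second 0 h library (0.22) and when libraries were scaled to their summed ribosomal protein counts (-0.02). COL1A1 of the fibroblast list (0.53) lost its call in the same cases (0.38 and 0.25). The part of these lists in the results was not tested.

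Within 1 h, 2374 of 14887 tested genes (15.9%) fell and 2048 (13.8%) rose, 29.7% in all, past an adjusted p of 0.05 in edgeR's quasi-likelihood test. The falls were the larger changes. Genes that fell had a median log2 change of -0.52 and genes that rose one of 0.27, while the median over all tested genes was 0.02. A fall of more than 1 log2 was found for 464 genes (3.12%) and one of more than 2 log2 for 99 genes. A rise of more than 1 log2 was found for 64 genes (0.43%), of which 62 stayed under 5 CPM at 1 h; the other 2 were MIR663A and NEAT1. The threshold falls inside a continuous range, with the nearest genes on either side at -1.004 and -0.999. Together the 464 genes had summed CPM equal to 0.348% of the common library size at 1 h and 0.943% at 0 h. The TMM factors were 1.10 and 1.09 at 1 h and 1.14 and 1.15 at 0 h. With factors above 1 the CPM of a library total less than the common size. Both percentages therefore lie below the share of these genes in the counts, and by different amounts at each time. Among the 1826 genes with at least 100 CPM at 0 h, 676 rose by any amount past the test. Falls at this level were counted only beyond 1 log2, and 20 genes had one, so the 2 counts are not at the same threshold.

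The number of genes that rose depended on the libraries and the scaling, and the number that fell by more than 1 log2 on the scaling and the filter. Without the first or second 1 h library 1184 and 1175 genes rose, and without the first or second 0 h library 794 and 1073. Without library composition scaling the split was 1044 higher and 2936 lower. When libraries were scaled to their summed ribosomal protein counts, the median of all genes shifted to -0.26, and 94 genes rose while 5923 fell, so a small rise below is a rise relative to the bulk of the RNA. Without 1 library at a time, between 424 and 460 genes fell by more than 1 log2, while ribosomal protein scaling gave 875 and a stricter filter at 5 CPM, which tests fewer genes, gave 290. For rises of more than 1 log2, leaving out the first 1 h library or the first 0 h library left 40 and 37 genes.

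**Figure D1:**
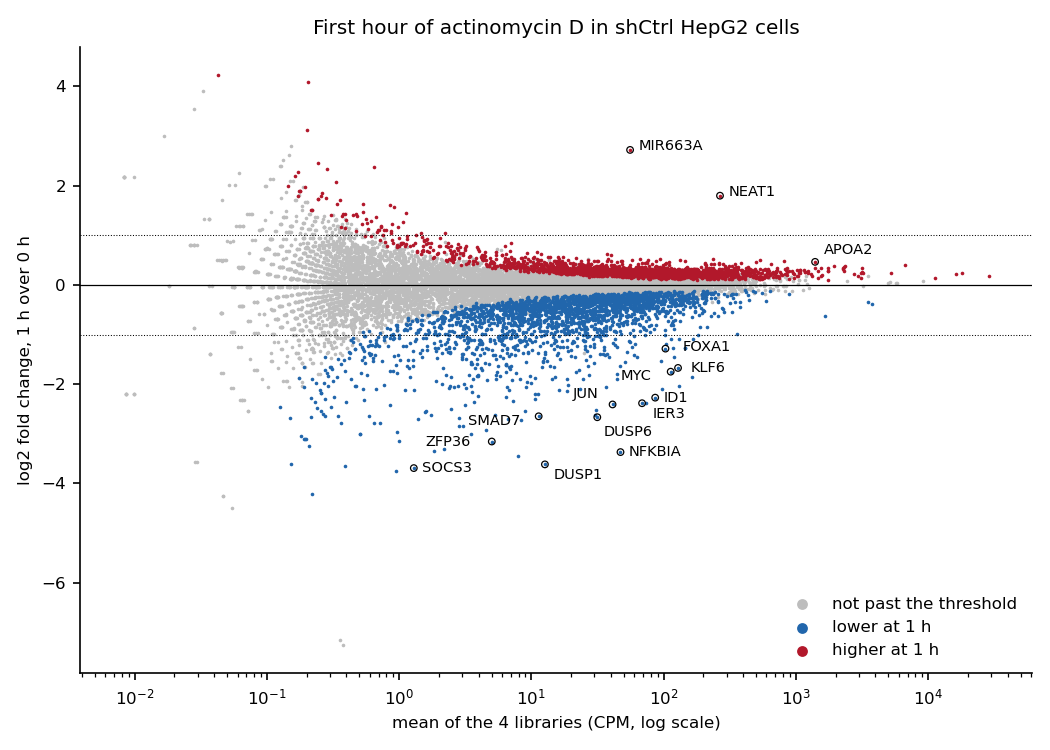
Change of each of the 14887 tested genes in the first hour (log2 fold change, 1 h over 0 h, vertical axis) against its mean level over the 4 shCtrl libraries (CPM, log scale). Blue points fell and red points rose past an adjusted p of 0.05, and dotted lines mark 1 log2. The falls reach past -3 at levels where the rises stay mostly under 0.5, and MIR663A and NEAT1 stand alone among the rises of abundant transcripts.

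Immediate early genes, which encode transcription factors and regulators switched on without new protein synthesis, fell as a group. Of 28 tested members of the AP-1 and immediate early list 24 fell, 15 of them by more than 1 log2, and FOSB, SRF, NR4A2 and EGR3 did not pass the test, against 15.9% of all genes lower and 3.12% lower by more than 1 log2. The list's median was -1.22. JUN, a core subunit of the AP-1 factor (chromosome 1, 59246465 to 59249785, GRCh37), stood at 13.2 and 12.9 CPM at 1 h, against 70.1 and 68.3 CPM at 0 h. That is a log2 change of -2.41 ± 0.101 (SE), with an adjusted p of 2.73e-14. IER3, an early gene tied to cell survival, had 22.8 and 21.4 CPM at 1 h and 113 and 118 CPM at 0 h, a change of -2.38. TRIB1, a pseudokinase that directs C/EBP factors to degradation, had 23.7 and 23.6 CPM at 1 h and 124 and 121 CPM at 0 h. The 1 h and 0 h libraries did not overlap for any of these genes, and 18.8% to 19.3% of the 0 h level was left.

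Other early genes spread from near complete loss of the transcript to a small change. IER5 fell to 1.77 and 1.75 CPM at 1 h, against 12.2 and 10.8 CPM at 0 h. KLF6, a zinc finger factor, was among the most abundant of the list and fell to 61.4 and 61.4 CPM at 1 h, against 200 and 192 CPM at 0 h (log2 change -1.67, SE 0.0607). EGR1, a growth factor-induced zinc finger factor, had 3.85 and 3.77 CPM at 1 h and 15.7 and 13.997 CPM at 0 h. FOS, the partner of JUN, was already scarce, at 0.236 and 0.364 CPM at 1 h and 1.22 and 1.28 CPM at 0 h, and its change of -2.02 carries an SE of 0.328. IER2 (-0.73) and ATF3 (-0.56), a stress-induced factor of the ATF family, fell by less than 1 log2. IER3 overlaps the antisense gene IER3-AS1 and IER2 overlaps AC011446.2, and since the strand setting of the counting is not given, reads of such partners cannot be told apart.

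**Figure D2:**
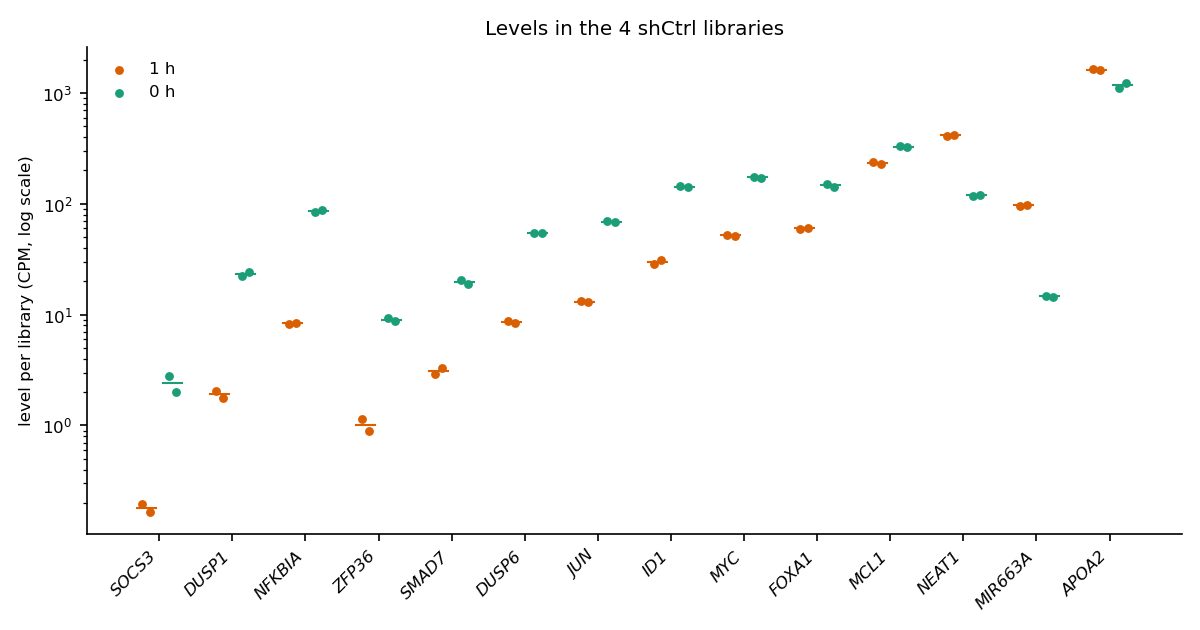
Level of 14 genes in each of the 4 shCtrl libraries (CPM, log scale), with 1 h points left of 0 h points and a bar at each pair's mean. The 2 libraries of a time lie close together and the times do not overlap for any gene shown. SOCS3 to MCL1 are lower at 1 h, and NEAT1, MIR663A and APOA2 are higher.

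Feedback inhibitors of signalling lost much of their share. In the ERK and MAP kinase feedback list 12 of 16 tested members fell, 6 by more than 1 log2, and 4 did not pass the test (median -0.55). DUSP1, a phosphatase that inactivates MAP kinases (chromosome 5, 172195093 to 172198198, GRCh37), had 2.04 and 1.79 CPM at 1 h, against 22.5 and 24.3 CPM at 0 h. These values rest on 52 and 54 counts at 1 h and on 569 and 706 counts at 0 h, and 8.15% of the 0 h level was left (log2 change -3.62 ± 0.133, adjusted p = 3.34e-15). DUSP6, the phosphatase specific for ERK, had 8.77 and 8.40 CPM at 1 h and 54.1 and 54.8 CPM at 0 h. SPRY1, a Sprouty inhibitor of receptor tyrosine kinase signalling, had 8.37 and 8.60 CPM at 1 h and 53.7 and 51.3 CPM at 0 h. The 1 h libraries lay far below the 0 h libraries for both, and 15.8% of the level remained for DUSP6 and 16.2% for SPRY1.

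In the SOCS and PIM list, which holds cytokine feedback genes, 8 of 11 members fell and 3 did not pass the test (median -0.93). SOCS3, an inhibitor of JAK kinases, had low levels of 0.197 and 0.165 CPM at 1 h, against 2.81 and 2.00 CPM at 0 h, a log2 change of -3.69 ± 0.357. It rests on 5 and 5 counts at 1 h and 71 and 58 counts at 0 h. SOCS1 had 1.45 and 1.49 CPM at 1 h and 5.29 and 5.17 CPM at 0 h. PIM3, a survival kinase, was more abundant, at 10.7 and 10.3 CPM at 1 h and 39.3 and 38.5 CPM at 0 h, a change of -1.89. SOCS5 fell to 49.5% of its 0 h level.

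Of 17 tested NF-kB genes 8 fell and 1 rose (median -0.37). NFKBIA, which encodes the inhibitor IkB alpha (chromosome 14, 35870717 to 35873955, GRCh37), had 8.25 and 8.40 CPM at 1 h, against 84.1 and 88.1 CPM at 0 h. With 210 and 254 counts at 1 h and 2129 and 2555 at 0 h, its change of -3.37 had the SE 0.0784 and an adjusted p of 1.80e-18. TNFAIP3 (A20), a ubiquitin-editing inhibitor of the same pathway, had 25.7 and 25.9 CPM at 1 h and 75.3 and 76.7 CPM at 0 h. NFKBIZ, an atypical nuclear IkB protein, had 5.94 and 6.52 CPM at 1 h and 18.1 and 18.2 CPM at 0 h. RELA, the main activating subunit, had a change of -0.01 that did not pass the test (adjusted p = 0.938).

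The TGF-beta, BMP and ID list had 9 of 15 members lower, 6 of them by more than 1 log2, and 1 higher (median -0.70). SMAD7, the inhibitory SMAD, had 2.91 and 3.31 CPM at 1 h and 20.4 and 18.8 CPM at 0 h. ID1, a dominant inhibitor of basic helix-loop-helix factors, had 28.4 and 30.8 CPM at 1 h, against 145 and 141 CPM at 0 h (log2 change -2.27, adjusted p = 1.02e-15). ID2 had 30.2 and 29.4 CPM at 1 h and 77.5 and 74.5 CPM at 0 h. Each of the 3 kept its libraries apart, with between 15.96% and 39.2% of the level left.

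Decay factors themselves were lost. All but 1 of the 8 genes of the ZFP36 and BTG/TOB list, proteins that bring deadenylases to mRNA, fell, with a median of -1.01. ZFP36 (tristetraprolin) had 1.14 and 0.893 CPM at 1 h and 9.36 and 8.69 CPM at 0 h, so 11.2% was left. Its paralogs ZFP36L2 and ZFP36L1 were far more abundant. ZFP36L2 had 49.6 and 52.7 CPM at 1 h and 215 and 205 CPM at 0 h, and ZFP36L1 48.4 and 49.9 CPM at 1 h and 145 and 140 CPM at 0 h. The general decay machinery (deadenylases, decapping, exosome and nonsense-mediated decay) lay near the whole set of tested genes. Of its 53 members 10 (18.9%) were lower and 7 higher, where 15.9% of all genes fell and 13.8% rose. Its median of 0.02, like that of all genes, turned negative under most other scalings. CNOT4 (-0.95), a ubiquitin ligase of the CCR4-NOT complex, and SMG8 (-0.68), a regulator of the nonsense-mediated decay kinase SMG1, were lower, and PABPC1, the cytoplasmic poly(A)-binding protein, was higher (0.29).

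MYC, the growth-promoting transcription factor (chromosome 8, 128747680 to 128753674, GRCh37), had 52.5 and 51.3 CPM at 1 h, against 176 and 173 CPM at 0 h. Its log2 change was -1.75 ± 0.0656 with an adjusted p of 3.91e-15, and 29.8% was left. Of the 12 tested MYC and MAX network genes 5 fell and 1 rose, and MYC was the only one to fall by more than 1 log2. MXD1, an antagonist that competes for MAX, changed by -0.93, and MGA, a repressor of the network, by -0.41.

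Transcription factors that define liver cells lost share. Of 27 tested members 21 fell, 7 by more than 1 log2, and 6 did not pass the test (median -0.53). NR0B2 (SHP), a corepressor in bile acid feedback, had 3.50 and 4.07 CPM at 1 h and 17.3 and 17.9 CPM at 0 h. FOXA1, a pioneer factor of endoderm, had 59.7 and 60.6 CPM at 1 h, against 151 and 142 CPM at 0 h, and FOXA2 had 14.3 and 15.6 CPM at 1 h, against 44.8 and 44.9 CPM at 0 h. The 1 h libraries lay below the 0 h libraries for all 3, with log2 changes of -2.21, -1.28 and -1.58. HNF4A, the hepatocyte nuclear receptor, had 166 and 170 CPM at 1 h and 182 and 180 CPM at 0 h, a change of -0.11 that did not pass the test (adjusted p = 0.135).

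Of 17 clock genes 11 fell and 6 did not pass the test (median -0.38). NR1D1 (REV-ERB alpha), a nuclear receptor that represses clock genes, had 6.84 and 7.08 CPM at 1 h and 16.6 and 16.2 CPM at 0 h. NFIL3, a repressor of D-box genes, had 37.8 and 36.2 CPM at 1 h and 82.9 and 86.5 CPM at 0 h, and RORA changed by -1.03. PER1 changed by only -0.38 with an adjusted p of 0.0484. That call was lost without any 1 of the 4 libraries: the adjusted p was 0.231 and 0.0988 without the first and second 1 h library, and 0.268 and 0.0523 without the first and second 0 h library.

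Other regulatory lists moved less. Over all tested genes 15.9% fell and 13.8% rose, and the share of falls in the Notch list below, 21.4%, lay near the first of these. Of 26 p53 targets 13 fell and 13 did not pass the test (median -0.31): PLK2, a polo-like kinase, had 7.43 and 6.48 CPM at 1 h and 30.5 and 30.3 CPM at 0 h, while GADD45A (-1.03), PPM1D (-1.02) and MDM2 (-1.02), which encode a growth arrest protein, a phosphatase and the ubiquitin ligase that degrades p53, kept about as much as they lost. MDM2 stood at 119 and 120 CPM at 1 h, against 250 and 233 CPM at 0 h. For Wnt feedback 5 of 11 fell and 3 rose (median -0.10), led by AXIN2, a scaffold that promotes beta-catenin breakdown, with 68.5 and 68.0 CPM at 1 h and 165 and 166 CPM at 0 h; AXIN2 overlaps AC004805.1. Among 14 Notch pathway genes 3 fell and 11 did not pass the test (median -0.24), and the one fall of more than 1 log2 was that of HES1, a repressor induced by Notch, to 7.59 and 7.41 CPM at 1 h, against 31.6 and 29.1 CPM at 0 h. YAP-TEAD targets were mixed, with 5 of 14 lower and 2 higher (median -0.05). NUAK2 (-2.03) and AMOTL2 (-1.38), a kinase and an angiomotin that inhibits YAP, fell, whereas CYR61, a matricellular protein and classic YAP target, had 37.9 and 36.2 CPM at 1 h and 39.7 and 38.5 CPM at 0 h and did not pass the test (adjusted p = 0.42).

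Among genes of transcription and splicing control, 10 of 18 P-TEFb and elongation genes fell and 1 rose (median -0.25). MEPCE, which caps and holds 7SK RNA, had 23.8 and 21.97 CPM at 1 h and 43.4 and 44.6 CPM at 0 h, and BRD2, a bromodomain reader of acetylated histones, 152 and 150 CPM at 1 h and 272 and 271 CPM at 0 h. HEXIM1, the inhibitor of P-TEFb, changed by -0.26 (adjusted p = 0.000337). Of 18 SR proteins and CLK kinases 4 fell (22.2%, near the 15.9% of all genes) and 14 did not pass the test (median -0.07). Of those 4, 3 were the kinases CLK1 (-1.46), CLK4 (-1.25) and CLK3 (-0.41), which phosphorylate SR proteins. CLK1 had 32.9 and 34.7 CPM at 1 h, against 92.7 and 93.1 CPM at 0 h. Among 18 cyclins and BCL2 family genes 6 fell and 2 rose (median -0.01). Pro-apoptotic BCL2L11 (BIM) changed by -1.18, the cyclin kinase inhibitor CDKN1B by -0.80, and the survival factor MCL1 by -0.49, with 236 and 229 CPM at 1 h and 329 and 323 CPM at 0 h. Of 5 alpha-arrestins, adaptors in endocytosis and glucose uptake, ARRDC3 (-1.67), TXNIP (-1.11) and ARRDC2 (-0.57) fell, the last not without the second 0 h library (adjusted p = 0.0964). TXNIP had 3.34 and 3.31 CPM at 1 h and 7.51 and 6.86 CPM at 0 h.

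**Figure D3:**
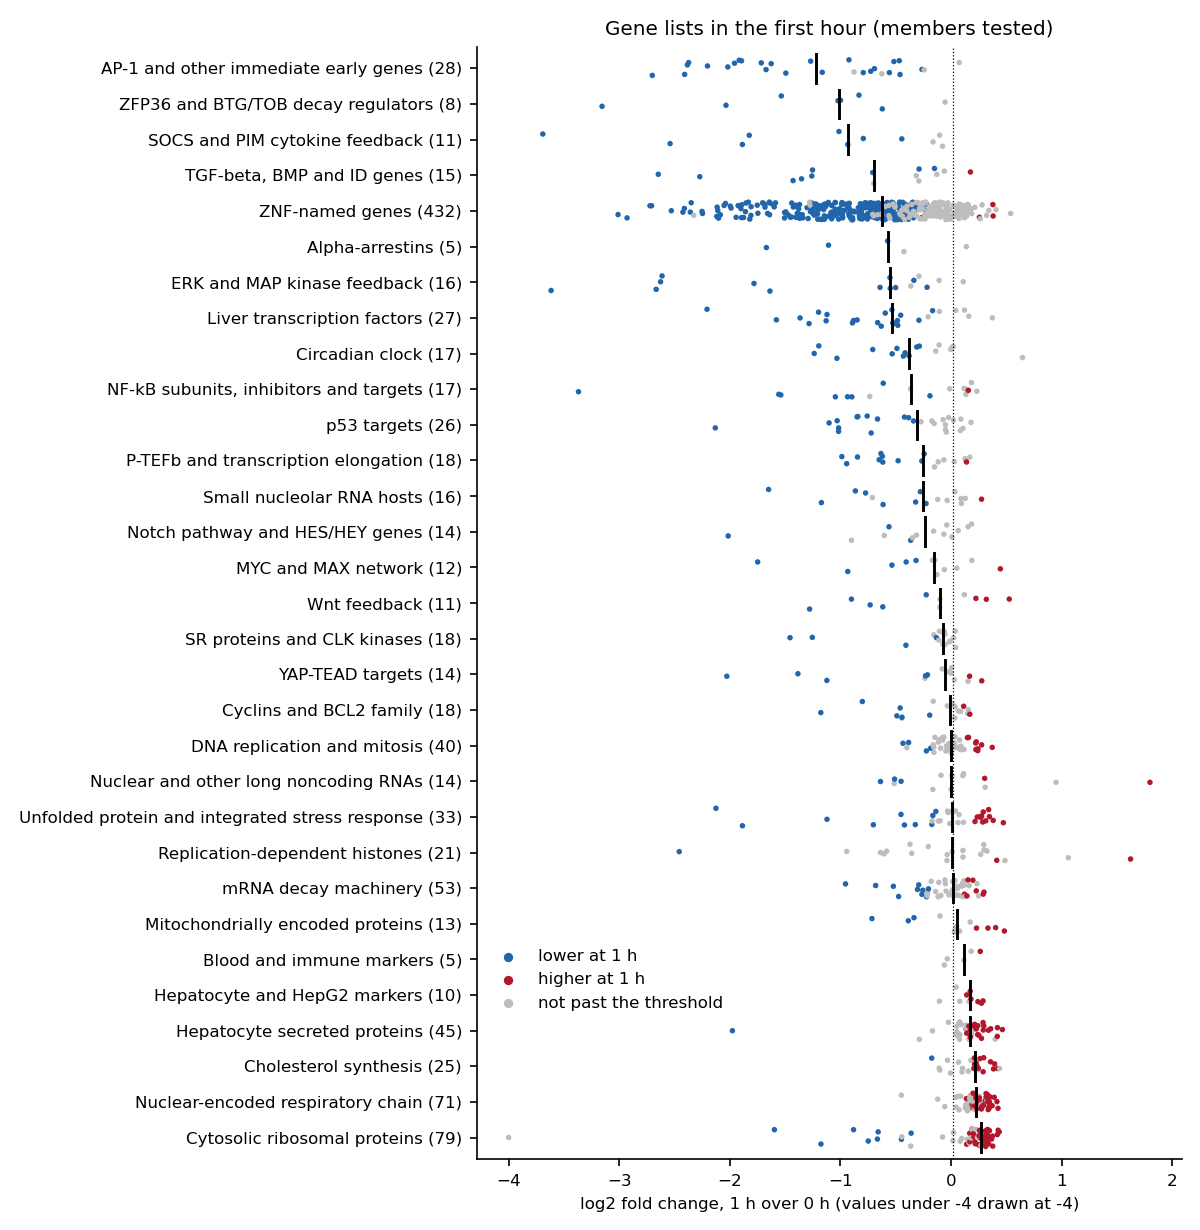
Log2 change in the first hour (1 h over 0 h, horizontal axis) of every tested member of each gene list with at least 5 tested members. Blue points fell, red points rose, grey points did not pass the test, black bars are list medians, and the dotted line is the median of all genes (0.02). Early response, decay regulator and cytokine feedback lists lie lowest, and ribosomal protein, respiratory chain, cholesterol and secreted protein lists lie highest, with medians that are below 0 under ribosomal protein scaling. For ribosomal proteins that median was set in advance, since the scaling uses their own counts.

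Zinc finger genes made up a large part of the falls. Of 432 tested genes with a ZNF number 291 fell and 3 rose, and 118 fell by more than 1 log2 (median -0.63). These genes encode mostly DNA-binding zinc finger proteins, many with a KRAB repressor domain. On chromosome 19, where they are clustered, 158 of 211 (74.9%) fell and 75 fell by more than 1 log2, with a median of -0.78. Elsewhere 133 of 221 (60.2%) fell and 43 fell by more than 1 log2, with a median of -0.43. The other 880 tested genes of chromosome 19 had 96 lower (10.9%) and a median of 0.11. ZNF217, an oncogenic zinc finger factor, was the most abundant of those named, with 36.8 and 36.1 CPM at 1 h and 159 and 154 CPM at 0 h. ZNF503 had 8.77 and 9.36 CPM at 1 h and 52.7 and 52.2 CPM at 0 h, and ZNF627 had 2.40 and 2.02 CPM at 1 h and 14.6 and 14.4 CPM at 0 h. ZNF14 fell to 0.786 and 0.761 CPM at 1 h, against 5.69 and 6.79 CPM at 0 h, and ZNF57 to 0.983 and 1.12 CPM, against 7.59 and 8.58 CPM. In all 5 the libraries of the 2 times were apart, with 12.4% to 23.3% left. Related zinc finger genes share sequence, and reads that could belong to several of them may be divided or dropped by the counting.

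The few rises inside the regulatory lists were small, and these genes were chosen after their values were seen. MLXIPL (ChREBP), the glucose-responsive partner of MLX, changed by 0.45 and ZNF76 by 0.38, and both kept their calls without any 1 library. ICAM1 of the NF-kB list (0.16, overlapping AC011511.5), SUPT6H of the elongation list (0.14), CCND1 (0.11) and NOTUM, a Wnt deacylase (0.32), lost theirs without each of the 4 libraries, with adjusted p of at least 0.122, 0.0706, 0.0799 and 0.079. TCF7 of the Wnt list (0.22) and AXL of the YAP-TEAD list (0.28) were past the threshold only when the first 1 h library was left out, of the 4 cases. APCDD1 (0.53) lost its call without the second 1 h or second 0 h library (0.121 and 0.210), ZNF90 (0.26) without the first 1 h or first 0 h library (0.189 and 0.232), SNHG5 (0.28) likewise (0.0687 and 0.196), and CCNL2 (0.17) without the second 0 h library (0.0539). ZNF385C (0.38) kept it only without the first 1 h library, and CRIM1 (0.17) only without the first 1 h or the first 0 h library.

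Stress response genes moved in both directions. Of 33 unfolded protein and integrated stress response genes 10 fell and 12 rose (median 0.01). The falls included the following genes: DDIT3 (CHOP), a pro-apoptotic factor, had 6.997 and 5.06 CPM at 1 h and 26.2 and 26.0 CPM at 0 h, DDIT4, an inhibitor of mTORC1, had 19.3 and 18.7 CPM at 1 h and 70.4 and 70.0 CPM at 0 h, and CEBPB had 34.5 and 34.7 CPM at 1 h and 76.3 and 74.3 CPM at 0 h. XBP1, the spliced factor of the pathway, changed by -0.45. The rises included HSPA5 (BiP), a chaperone of the endoplasmic reticulum, with 2563 and 2514 CPM at 1 h and 1963 and 2029 CPM at 0 h, and HSP90B1, another chaperone there, with a change of 0.38. DDIT3 overlaps MARS and DDIT4 overlaps DDIT4-AS1 in their exons.

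Transcripts of secreted liver proteins rose or held. Of 45 tested members 25 rose, 19 did not pass the test and 1 fell (median 0.17), where 13.8% of all genes rose. The list was abundant, at 67050 and 67137 summed CPM at 0 h, and rises were more frequent among abundant genes. Of the 1826 genes with at least 100 CPM at 0 h 676 rose. APOA2, an apolipoprotein of high-density lipoprotein (chromosome 1, 161192082 to 161193421, GRCh37), had 1641 and 1602 CPM at 1 h, against 1116 and 1233 CPM at 0 h (log2 change 0.46 ± 0.0561, adjusted p = 1.07e-06). ORM1, an acute phase protein, had 117 and 116 CPM at 1 h and 86.6 and 87.8 CPM at 0 h. SERPINA1, alpha-1 antitrypsin, had 5745 and 5704 CPM at 1 h and 4785 and 4889 CPM at 0 h, a change of 0.24 that turned to -0.04 under ribosomal protein scaling. Under that scaling the list's median was -0.11. The exception, SERPINA3 (alpha-1 antichymotrypsin), had 3.85 and 4.23 CPM at 1 h and 16.5 and 15.5 CPM at 0 h, a change of -1.98, and it overlaps AL049839.2.

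Housekeeping groups rose by small amounts. For the counts of members below, 13.8% of all tested genes rose and 15.9% fell, and 676 of the 1826 genes with at least 100 CPM at 0 h rose. Cytosolic ribosomal proteins were higher for 53 of 79 members, with a median of 0.27. The 53 had a median of 263 CPM at 0 h and none lay under 63.8 CPM. The 8 that fell, 2 of them by more than 1 log2, had at most 23.3 CPM at 0 h (median 5.81). RPL36A changed by -1.60, RPL21 by -0.88 and RPS3A by -0.75. Ribosomal protein genes have many near-identical pseudogene copies, so members with such low counts are uncertain. Nuclear-encoded respiratory chain subunits were higher for 40 of 71, and 31 did not pass the test (median 0.23). NDUFS5, a complex I subunit, had 94.7 and 91.6 CPM at 1 h and 65.7 and 73.9 CPM at 0 h. Cholesterol synthesis genes were higher for 13 of 25 and lower for 1 (median 0.21), and HMGCS1, the cytosolic HMG-CoA synthase, had 269 and 256 CPM at 1 h and 198 and 195 CPM at 0 h. Under ribosomal protein scaling the medians were -0.05 for the respiratory chain and -0.07 for cholesterol synthesis, and NDUFS5 (0.13) and HMGCS1 (0.13) no longer passed the test. The median for ribosomal proteins was -0.01, which the scaling set in advance because it uses the counts of these same genes.

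Transcripts made inside mitochondria diverged from each other. Of the 13 mitochondrially encoded proteins 3 (23.1%) were lower, 4 higher and 6 not past the test (median 0.05). Over all genes 15.9% were lower and 13.8% higher. MT-CYB, a subunit of complex III, had 3236 and 3240 CPM at 1 h and 4287 and 4178 CPM at 0 h, a change of -0.39, and MT-ND2, of complex I, changed by -0.34. MT-ND5, also of complex I, had 7532 and 7637 CPM at 1 h and 5874 and 5597 CPM at 0 h, a change of 0.40. All 3 are encoded on the heavy strand, whereas MT-ND6, the light-strand member, had 103 and 83.5 CPM at 1 h and 134 and 171 CPM at 0 h (-0.72). The other rises were MT-ND4L (0.33), MT-ND4 (0.23, lost without the second 0 h library with an adjusted p of 0.106) and MT-ATP8 (0.48, which overlaps MT-ATP6 and was lost without the first 1 h or first 0 h library, with adjusted p of 0.155 and 0.346). The list's median was -0.02 with library size alone and in limma on log2 RPKM, and -0.23 under ribosomal protein scaling.

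Noncoding RNAs included both genes that rose by more than 1 log2 with at least 5 CPM, and others that fell. NEAT1, the scaffold of nuclear paraspeckles (chromosome 11, 65190245 to 65213011, GRCh37), had 411 and 418 CPM at 1 h, against 118 and 120 CPM at 0 h. Its log2 change was 1.80 ± 0.0654, with an adjusted p of 2.97e-15, and it stayed at 1.51 under ribosomal protein scaling. The entry MIR663A had 95.6 and 98.1 CPM at 1 h, against 14.9 and 14.5 CPM at 0 h, a change of 2.72 ± 0.124. In the deposited table that entry spans chromosome 20 from 26167556 to 26232162 (GRCh37) with 4401 exonic bases, so its counts are reads of a long RNA of that locus and not of the mature microRNA. Long noncoding RNAs of the list were mostly not past the test (9 of 14), with 3 (21.4%) lower and 2, NEAT1 among them, higher. Over all genes 15.9% were lower and 13.8% higher. MALAT1, another abundant nuclear RNA, had 524 and 508 CPM at 1 h and 476 and 479 CPM at 0 h. KCNQ1OT1, the imprinted antisense RNA, had 88.9 and 96.5 CPM at 1 h and 137 and 127 CPM at 0 h.

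Small nucleolar RNA hosts, whose spliced RNAs are known targets of nonsense-mediated decay, fell for 8 of 16 and rose for 1 (median -0.25). SNHG12 had 6.17 and 5.56 CPM at 1 h and 18.96 and 17.8 CPM at 0 h, SNHG3 had 24.2 and 26.3 CPM at 1 h and 57.8 and 56.2 CPM at 0 h, and GAS5, a host of many snoRNAs that is itself a growth arrest transcript, had 35.3 and 34.6 CPM at 1 h and 59.8 and 59.6 CPM at 0 h. RN7SL1, the RNA of the signal recognition particle, had 13.2 and 14.3 CPM at 1 h and 42.6 and 29.3 CPM at 0 h and did not pass the test (adjusted p = 0.149), nor did the other 3 tested structured RNAs. Of 21 histone genes HIST1H3E (-2.46) fell and HIST1H2AE (1.62) and HIST1H1C (0.41) rose, with a median of 0.01. HIST1H3E lost its call without the first 1 h library (adjusted p = 0.0662), HIST1H2AE without the second 1 h or first 0 h library (0.0915 and 0.125), and HIST1H1C without the first 1 h, first 0 h or second 0 h library (0.205, 0.203 and 0.0702). Of 40 DNA replication and mitosis genes 4 (10%) fell and 9 rose (median -0.003), where 15.9% of all genes fell and 13.8% rose. AURKA, a mitotic kinase, changed by -0.43, and MCM6, of the replicative helicase, by 0.37.

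Beyond MIR663A and NEAT1, the largest rises with at least 5 CPM were under 1 log2. LTB4R, a leukotriene B4 receptor, had 8.84 and 9.16 CPM at 1 h and 4.50 and 5.52 CPM at 0 h (log2 change 0.84), and MEGF6 had 7.51 and 8.44 CPM at 1 h and 4.74 and 4.52 CPM at 0 h (0.79). TGM2, a transglutaminase, was the most abundant of the rest, with 43.0 and 47.2 CPM at 1 h and 29.2 and 29.4 CPM at 0 h (0.63). CTHRC1 (0.69), PTP4A3 (0.64), ATG16L2 (0.65), SLC22A18 (0.63) and EME2 (0.63, overlapping SPSB3) followed. CPLX1 (0.66) lost its call without the second 1 h or the second 0 h library, with adjusted p of 0.0851 and 0.0953. AL590714.1 (0.67) lost it without the first 1 h library and without either 0 h library, with adjusted p of 0.278, 0.144 and 0.16.

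Genes that fell by more than 1 log2 had fewer exons, longer 3′ UTRs (median 1222 against 945 bases) and more often an AU-rich motif than all tested coding genes, which is given as a description with no test. The motif TTATTTATT, a core of AU-rich elements, was searched on the transcript strand in the 3′ UTR of 1 coding transcript per gene (GENCODE v29, GRCh38), and each TTATTTATT also holds the shorter TATTTAT. The sites below are examples from early response genes that were named by rule and hold the motif, shown to let the letters around it be seen. Not every named gene is covered, and others may hold it too. Capitals mark the motif, and the first occurrence after the stop codon is given for each.
DUSP1: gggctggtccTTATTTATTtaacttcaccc
ZFP36: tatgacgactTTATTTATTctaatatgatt
IER5: gtgtcttcctTTATTTATTtatttatttaa
FOS: tgtttttaatTTATTTATTaagatggattc
MDM2: tattttatttTTATTTATTttttgagacgg
They lie at chr5:172768642-172768671 (minus strand), chr19:39409196-39409225 (plus strand), chr1:181092443-181092472 (plus strand), chr14:75282060-75282089 (plus strand) and chr12:68844762-68844791 (plus strand) in GRCh38. The UTR of DUSP1 holds 2 such motifs. That of IER5 holds 3, which overlap in the 1 run shown, with only the first in capitals, and the other 3 genes hold 1 each. SOCS3, NFKBIA, SPRY1, SMAD7 and JUN hold only TATTTAT, and DUSP6, ID1, HES1, EGR1 and MYC hold neither in the transcript used. Neither motif was found in C10orf10 (log2 change -3.44), ZNF14, ZNF57 or ZNF627, which also had large falls.

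Of 366 coding genes that fell by more than 1 log2 and have a 3′ UTR of at least 50 bases, 66 (18.03%) held TTATTTATT, against 8.06% of all 12128 such genes and 3.29% of those that rose. For TATTTAT the shares were 48.6%, 31.1% and 16.8%. The difference was present within classes of UTR length: 5.26% against 1.45% of all genes for 50 to 500 bases, 14.2% against 5.28% for 500 to 1500, 20.2% against 10.7% for 1500 to 3000, and 35.1% against 21.9% from 3000 bases. The first share of each pair rests on few genes: 4 of 76, 18 of 127, 18 of 89 and 26 of 74. Turned round, 31.3% of the 977 genes with the motif fell, against 16.2% of the 11151 without it, and 6.76% against 2.69% fell by more than 1 log2. With ZNF-named genes left out the last pair was 6.11% and 1.84%. A second motif, TGTANATA, which Pumilio proteins are known to bind, was in 37.4% of the genes that fell by more than 1 log2, against 25.8% of all genes. Most of the genes that fell hold no TTATTTATT, and a match of letters does not show that a factor binds.

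Exon number also differed between these sets of genes. Over all 12607 tested coding genes its Spearman correlation with the log2 change was weak, at 0.098. The values were -0.27 for transcript length, -0.24 for 3′ UTR length, -0.18 for coding length and 0.24 for GC content. Coding genes that fell by more than 1 log2 had a median of 4 exons, against 9 for all tested coding genes and 10 for those that rose. Of 848 genes with 1 or 2 exons 32.4% fell and 9.79% fell by more than 1 log2. Of 2548 genes with 3 to 5 exons 23.2% fell and 6.63% fell by more than 1 log2, and without ZNF-named genes these shares were 17.97% and 3.91%. Of 3789 genes with 6 to 10 exons 13.8% fell and 2.19% fell by more than 1 log2, and of 5422 genes with 11 or more 14.3% and 0.775%. The transcripts of the genes that fell by more than 1 log2 had a median GC content of 46.5%, against 49.7% for all genes and 52.4% for those that rose. GC content, length and exon number vary together, and their separate parts in the result were not tested.

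**Figure D4:**
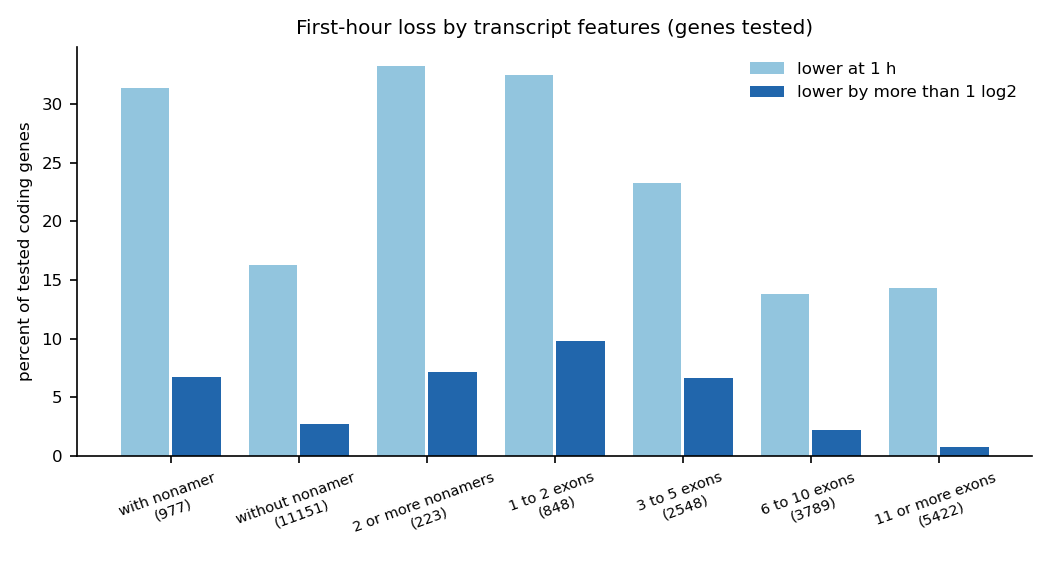
Percent of tested coding genes that fell (light bars) and that fell by more than 1 log2 (dark bars) in the first hour, by the motif TTATTTATT (the nonamer of the axis) in the 3′ UTR and by exon number, with the number of genes in brackets. Genes with the motif fell in 31.3% of cases and genes without it in 16.2%. The dark bars step down from 9.79% at 1 or 2 exons to 0.775% at 11 or more.

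The later times show what followed the first hour. Over the 464 genes the median fitted log2 change from 0 h was -1.40 at 1 h. At 3 h and 6 h the medians were -2.15 and -2.19. These 2 are log2 ratios of mean CPM with 0.1 added to each mean, which shrinks changes of low genes. They are therefore not on the same measure as the 1 h value. By mean CPM, 400 of the 464 were lower at 3 h than at 1 h, whereas 241 were lower at 6 h than at 3 h. In 47 of them both 6 h libraries lay above both 1 h libraries. Since these are shares of the remaining RNA, a rise after 3 h does not show new synthesis. DUSP1 had 22.5 and 24.3 CPM at 0 h, 2.04 and 1.79 at 1 h, 1.58 and 1.32 at 3 h, and 1.04 and 1.06 at 6 h. NFKBIA went on falling, to 1.95 and 1.88 CPM at 3 h and 1.81 and 1.54 CPM at 6 h, and MYC to 13.9 and 14.9 CPM at 3 h and 9.53 and 11.2 CPM at 6 h.

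Other transcripts lost most of their share in the first hour and then held or regained it. SPRY1, at 8.37 and 8.60 CPM at 1 h, had 6.93 and 7.60 CPM at 3 h and 8.24 and 7.39 CPM at 6 h. NFKBIZ, at 5.94 and 6.52 CPM at 1 h, had 6.60 and 7.52 CPM at 3 h and 10.5 and 9.82 CPM at 6 h. MDM2, at 119 and 120 CPM at 1 h, had 95.8 and 106 CPM at 3 h and 125 and 138 CPM at 6 h. The authors' deposited table lists a half-life in shCtrl for 381 of the 464 genes, with a median of 2.40 h and a range of 0.998 to 117 h, against a median of 6.02 h over all 7772 listed genes. For 116 of the 381 it is above 3 h. In that deposited table DUSP1 has 1.53 h and NFKBIA 1.09 h, while MDM2 has 5.84 h and NFKBIZ 7.39 h although 49.4% and 34.4% of their level was left at 1 h. NEAT1 went on rising, to 458 and 487 CPM at 3 h and 778 and 797 CPM at 6 h, and MIR663A to 331 and 318 CPM at 3 h and 409 and 376 CPM at 6 h.

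**Figure D5:**
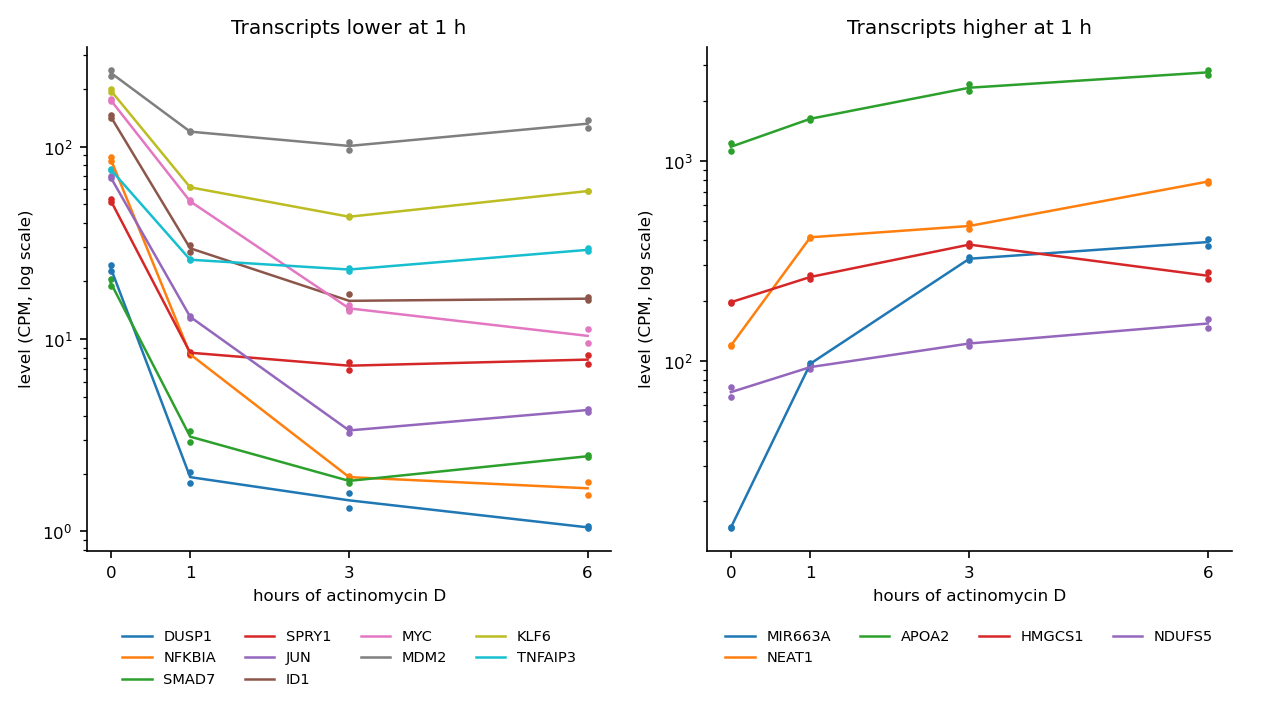
Level in the shCtrl libraries (CPM, log scale) at 0, 1, 3 and 6 h of actinomycin D. Points are libraries and lines join the means. DUSP1, NFKBIA and MYC are lower at 6 h than at 1 h, MDM2 and TNFAIP3 are slightly higher, and MIR663A and NEAT1 rise at each time.

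The first hour was repeated in the knockdown lines, which share no library with shCtrl. In the shSETD2 line SETD2 had 63.0 and 66.3 CPM at 1 h and 90.4 and 81.7 CPM at 0 h, against 102 and 101 CPM at 1 h and 131 and 129 CPM at 0 h in shCtrl. In the shMETTL14 line METTL14 had 6.44 and 7.71 CPM at 1 h and 15.005 and 13.9 CPM at 0 h, against 24.4 and 24.5 CPM at 1 h and 29.3 and 30.03 CPM at 0 h in shCtrl. Of the 464 genes that fell by more than 1 log2 in shCtrl, 384 (82.8%) fell in shSETD2 cells, where 16.1% of all genes fell, and 411 (88.6%) in shMETTL14 cells, where 16% fell. Both lines showed the fall for 373 of them (80.4%). In the other direction, 381 genes (2.56%) fell by more than 1 log2 in shSETD2 cells and 491 (3.3%) in shMETTL14 cells, and 303 (79.5%) and 342 (69.7%) of these also did so in shCtrl. In both directions 28.8% of all genes were called in shSETD2 cells and 39.1% in shMETTL14 cells. The shSETD2 count of 4286 genes was 2236 without its first 1 h library, 2556 without the first and 2760 without the second 0 h library, and the shMETTL14 count of 5824 was 3804 without its first 1 h library and 3588 without the second 0 h library. DUSP1 changed by -3.23 in shSETD2 cells and -4.26 in shMETTL14 cells, and NFKBIA by -3.21 and -3.80. NEAT1 changed by 2.01 and 1.26, and MIR663A by 2.65 and 3.41.

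Among the rises of more than 1 log2, which were mostly of low genes, fewer passed the test in the other lines, and no test compares this with the falls. Of the 64 genes 13 (20.3%) rose in shSETD2 cells, where 12.6% of all genes rose, 10 (15.6%) in shMETTL14 cells, where 23.1% rose, and 4 in both. Their median change was 0.47 in shSETD2 cells and 0.36 in shMETTL14 cells. Of all 2048 genes that rose in shCtrl, 60.4% rose in shSETD2 cells and 83.0% in shMETTL14 cells. The 64 had a median of 0.675 CPM at 1 h and 0.249 CPM at 0 h. A test of the difference in the first hour between lines called 7 genes (0.047%) for shSETD2 minus shCtrl and 16 (0.107%) for shMETTL14 minus shCtrl. At an unadjusted p under 0.05 the counts were 661 and 1153. Leaving out any 1 of the 8 libraries of a comparison left 0 or 1 gene for shSETD2 and 2 to 6 for shMETTL14.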

How the data were processed

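RNA of HepG2 lines was sequenced in 12 groups of 2 libraries. The authors deposited gene-level counts and RPKM in 1 table, and a half-life in hours in another; the submitters' processing notes name GRCh37, HTSeq 0.6.1p1, TopHat and cutadapt, and the sources used here give no settings, strand or annotation release. The design text calls the libraries biological replicates, but not how cultures were kept apart, so p-values measure the spread between these libraries, which may be technical. The deposited table lists 34618 genes, 9318 without a count, and holds 0 ERCC entries although spike-ins were added per the labels' protocols, so no spike-in scaling was run and no absolute level is given. In bulk RNA, fewer cells and less RNA per cell cannot be told apart. The floors of 3 counts cover counting error only, while each SE is that of the fitted model.

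The count test was the robust two-sided quasi-likelihood F test of edgeR 4.0.16, run in R 4.3.3 (TMM scaling, filterByExpr, Benjamini-Hochberg at 0.05), with all 24 libraries in 1 model and 12 residual degrees of freedom. The biological coefficient of variation was 5.04%. Each p in the text comes from that test unless another is named. Alternatives used DESeq2 1.42.0, limma 3.58.1 on log2(RPKM + 0.1), other scalings and filters, fewer libraries and a replicate block. GENCODE v29 (GRCh38) gave gene types, exon numbers and 3′ UTRs; exon overlap means at least 20% of the exonic length.

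The lists and their members were chosen with earlier results of these data known. Named genes are 19 preset ones, the 12 largest falls and rises with at least 5 CPM in 1 group and separate libraries, and up to 3 list members with the smallest p. HNF4A, RELA, XBP1, HSPA5, HSP90B1, MALAT1, RN7SL1, the members listed as not past the test, MT-ND6, MT-ND4, MT-ND4L, MT-ATP8 and ARRDC2 were chosen after their values were seen. A few members of the lists are counted but not reported here by name.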

Additional observations from a re-analysis of the deposited data

Results flagged for a closer look

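A test of the difference between lines singled out 5 of the named genes, each of which changed more, or rose less, in a knockdown line than in shCtrl. IER3 fell by 2.38 on the log2 scale in shCtrl, and the difference was -0.65 in shSETD2 minus shCtrl (adjusted p = 0.0307, edgeR) and -1.38 in shMETTL14 minus shCtrl (adjusted p = 6.89e-07). IER3 had 7.05 and 8.13 CPM at 1 h and 65.2 and 58.5 CPM at 0 h in shSETD2 cells, 7.19 and 7.25 CPM at 1 h and 99.5 and 96.7 CPM at 0 h in shMETTL14 cells, and 22.8 and 21.4 CPM at 1 h and 113 and 118 CPM at 0 h in shCtrl. The IER3 difference for shMETTL14 stayed past the threshold without any 1 of the 8 libraries (adjusted p 5.46e-06 to 4.28e-05) and in all 8 other settings. That for shSETD2 was lost without each of the 8 libraries (adjusted p 0.0592 to 0.525), and with ribosomal protein scaling, with library size alone and in limma (up to 0.619).

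For NEAT1 the difference of shMETTL14 minus shCtrl was -0.53 (adjusted p = 0.0132). NEAT1 had 537 and 505 CPM at 1 h and 221 and 213 CPM at 0 h in shMETTL14 cells, and 411 and 418 CPM at 1 h and 118 and 120 CPM at 0 h in shCtrl. For MYC it was -0.49 (adjusted p = 0.0438), for SPRY1 -0.75 (adjusted p = 0.0485), and for METTL14, the target of the hairpin in that line, -0.75 (adjusted p = 0.0485). MYC had 22.04 and 22.1 CPM at 1 h and 106 and 102 CPM at 0 h in shMETTL14 cells. Without 1 library, NEAT1 kept its call in 1 of 8 cases (adjusted p 0.0422 to 0.151), and MYC, SPRY1 and METTL14 in 0 of 8 (0.154 to 0.329, 0.110 to 0.488 and 0.101 to 0.506). With ribosomal protein scaling none of these 4 differences passed, and in limma those of MYC, SPRY1 and METTL14 did not (highest adjusted p over the other settings 0.391).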

How the results depend on the processing

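Named genes kept their direction in every alternative other than scaling to ribosomal protein counts, where CRIM1 (-0.12), MCM4 (-0.060), SERPINA1 (-0.041), LYZ (-0.022) and AHSG (-0.0091) reversed. Of 120 named genes, 120 kept direction and side of the threshold without the filter, with 4 or 8 shCtrl libraries alone and with the block, 119 with RLE size factors, 118 in DESeq2, 117 with library size alone, 116 in limma, 110 to 114 without 1 library, and 99 with ribosomal protein scaling, where 15 lost their call and 1 gained it. METTL14 lost its call without any 1 library (adjusted p 0.0743 to 0.124). With 3 counts as floor, changes of genes under about 1 CPM are the least certain.

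For genes lower, ribosomal protein scaling gave 5923. For genes higher it gave 94, library size alone 1044, limma 984 and the 4 libraries alone 3104. For falls of more than 1 log2, ribosomal protein scaling gave 875 and the filter at 5 CPM 290. For such rises the counts were 23 and 6, and 26 in both DESeq2 and limma. The difference for shSETD2 called 4 genes with library size alone, 0 with ribosomal protein scaling and in limma (716 and 591 at an unadjusted p under 0.05), 21 without a filter and 11 in DESeq2. That for shMETTL14 called 2 with ribosomal protein scaling, 41 without a filter, 47 in DESeq2 and 5 in limma. The causes were not tested. Without 1 library the counts were 1716 to 1974 lower, 794 to 1184 higher, 424 to 460 lower and 37 to 53 higher by more than 1 log2, 2236 to 3814 called in shSETD2 and 3588 to 4770 in shMETTL14 cells, and 0 to 1 and 2 to 6 for the differences of shSETD2 and shMETTL14.

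List medians reversed under ribosomal protein scaling for secreted proteins (-0.11), cholesterol synthesis (-0.070), mitochondrially encoded proteins (-0.23), the respiratory chain (-0.053), decay machinery (-0.27) and hepatocyte markers (-0.12). That scaling also turned the stress response median from 0.007 to -0.28 and that of long noncoding RNAs from 0.004 to -0.28. The histone median went from 0.012 to -0.26 and that of blood markers from 0.12 to -0.16. With library size alone and in limma medians reversed for mitochondrially encoded proteins (-0.0152 and -0.0151) and decay machinery (-0.0512 and -0.0511). For decay machinery they also did with RLE (-0.0155), in DESeq2 (-0.0165) and without the second 1 h library (-0.0136). Its median was -0.0030 and -0.0075 without the first and second 0 h library, and 0.0152 without the first 1 h library. With the 4 or 8 shCtrl libraries alone it was -0.0021 and -0.0052. The stress response, long noncoding RNA and histone medians were also below 0 with RLE, with library size alone and in DESeq2 and limma. Without 1 library each of these was below 0 in some cases.

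The labels tie same-numbered libraries to no shared culture or day, and not every pair deviated together: the correlation of the deviations of same-numbered 1 h and 0 h libraries was -0.0547, and over the 12 groups it ran from -0.216 to 0.678. With the replicate block 2611 genes fell and 2533 rose, and the differences called 12 genes for shSETD2 and 45 for shMETTL14, against 7 and 16 without it.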

Other observations

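Some groups defined by the annotation and not by function were among those lost in the first hour. Of 114 tested sense intronic RNAs, noncoding genes that lie within an intron of another gene on the same strand, 30 (26.3%) fell and 24 (21.1%) fell by more than 1 log2, with a median of -0.49. For protein-coding genes the shares were 17.2% and 3.01%, for long intergenic RNAs 8.38% and 4.19%, and for antisense RNAs 5.20% and 1.36%. Reads of such an intronic gene and of the unspliced host cannot be told apart by these counts. Chromosome 19 held 98 of the 464 genes that fell by more than 1 log2 (21.1%), against 7.33% of the tested genes, and 75 of the 98 were ZNF-named.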
